A study of Drosophila melanogaster with 29 samples.

Results

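The measurements described here compare Drosophila embryos that overexpress Mnn1, labelled mnn++, with driver-only controls in the 2-4 h collection. They are the 4 two-colour arrays whose titles pair mnn++ of 2-4 h with a control of the same age, 2 against cntrl1 and 2 against cntrl2, out of 29 samples in the series. The mnn++ embryos carry a full-length Mnn1 cDNA behind a GAL4-responsive UAS promoter, inserted by a P element, and both controls carry the same driver without that construct, per the labels. The labels name neither the driver nor what distinguishes cntrl1 from cntrl2, and they give no cell type in which the construct is active. Parent flies were kept at 25 °C for 3 to 5 days after eclosion and mated. Whole embryos were frozen, and poly(A) RNA was labelled with Cy3 or Cy5. Each pairing was hybridised once with mnn++ in Cy3 and once with mnn++ in Cy5. Whether the arrays used separate RNA is not stated, so p-values measure the spread between these comparisons, which may be technical. That spread also holds any difference between cntrl1 and cntrl2. In whole embryos, fewer cells of a type and less RNA per cell cannot be told apart.

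Mnn1 encodes the fly homologue of menin, the product of the human tumour suppressor gene MEN1. In mammals menin is a subunit of complexes that methylate histone H3 at lysine 4, a mark of active promoters. At this age the fly embryo cellularizes and begins gastrulation, maternal transcripts are cleared and the zygotic genome becomes broadly active. In the GAL4/UAS system a construct is transcribed where and when its driver makes GAL4.

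Values are log ratios, read as log2, with signs set so that values above 0 stand for a stronger mnn++ signal. That direction is likely but is not stated in the labels. It rests on Mnn1 itself at 2-16 h, where the deposited values of its 2 spots ran from -0.84 to -0.25 and from -0.79 to -0.40 over 4 arrays in both dye orientations. All signs below hold under that reading. Of 31464 spots, 30377 had a value on every array and were tested, and 24418 of these name a single current gene, 10450 genes in all. Nearly every clone was spotted in duplicate at a fixed distance in its block, so counts of spots are about 2 per clone.

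Mnn1 was not detectably raised at this age. Its spot 12064 read -0.11 against cntrl1 and -0.17 against cntrl2 with mnn++ in Cy3, and 0.16 and 0.23 with mnn++ in Cy5. Its spot 12724 read -0.12 and 0.14 with mnn++ in Cy3, and 0.23 and 0.29 with mnn++ in Cy5. For each spot both readings with mnn++ in Cy5 lay above both with mnn++ in Cy3, while the controls overlapped. Averaged over dyes and controls, spot 12064 came to 0.027 ± 0.086 (SE; limma adjusted p = 0.966) and spot 12724 to 0.14 ± 0.083 (adjusted p = 0.743). Averaged over dyes at 2-16 h, the same spots stood at 0.37 and 0.51 against cntrl1 and at 0.75 and 0.73 against cntrl2.

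The controls gave different pictures. Averaged over dyes, 24 spots exceeded 0.5 in size against cntrl1 and 520 did so against cntrl2. Beyond 1, a change of at least 2-fold, there were 0 spots against cntrl1 and 53 against cntrl2. The SD over spots was 0.108 against cntrl1 and 0.177 against cntrl2, while the difference between dye orientations, divided by 2, had an SD of 0.160 and 0.158. For cntrl1 the spread between dye orientations was therefore larger than the spread of the ratios. Across 15180 pairs of duplicate spots on the same arrays, the dye-averaged ratios had r = 0.296 for cntrl1 and 0.715 for cntrl2, a description over spots that are not independent replicates.

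**Figure D1:**
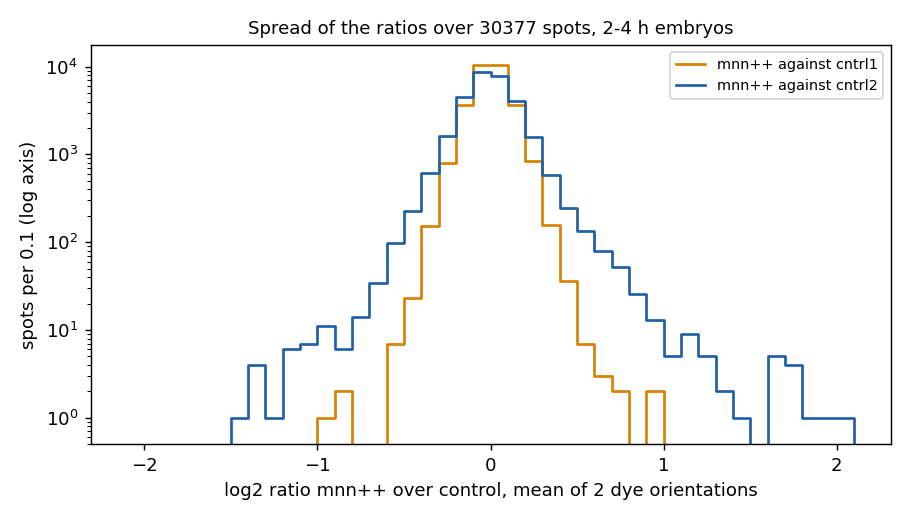
Number of spots (log axis) in bins of the dye-averaged log2 ratio of mnn++ over control, for cntrl1 and cntrl2 at 2-4 h, 30377 spots each. The cntrl2 curve reaches beyond 1 on both sides with 53 spots, and the cntrl1 curve has 0 spots there.

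Against the mean of both controls, the comparison that asks what is common to them, 0 of 30377 spots passed an adjusted p of 0.05 in limma, 0.0% of those tested. Before adjustment 2226 spots had p under 0.05, where 1519 would fall by the threshold alone. The spread in this test is the distance between the cntrl1 and cntrl2 ratios of each window, so spots that separate the controls have a large spread. Treating each array as its own value with a dye term gave 153 spots, and robust limma gave 1. The genes that follow had the same sign on all 4 arrays and the smallest p, and none of them passed this test.

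Among the 12 with the smallest p above 0, the highest was CG4860. It read 0.0040 and 0.74 against cntrl1, and 0.33 and 1.00 against cntrl2, with mnn++ in Cy3 and in Cy5 respectively. All 4 arrays lay above 0, those with mnn++ in Cy5 being higher for both controls, and the mean was 0.52 ± 0.081 (adjusted p = 0.428). Against cntrl2 alone CG4860 passed, at 0.67 (limma adjusted p = 0.0288). CG31650 stood at 0.39 and 0.63 against cntrl1 and at 0.28 and 0.47 against cntrl2, a mean of 0.44 ± 0.084, yet its duplicate spot averaged -0.012 against cntrl1 and 0.14 against cntrl2. cni, the fly cornichon, which carries cargo such as Gurken out of the endoplasmic reticulum, ranged over the arrays from 0.16 to 0.51 with a mean of 0.32 ± 0.071. Its 3 other spots averaged between 0.0055 and 0.21 against cntrl1 and between 0.17 and 0.41 against cntrl2. The others were CG11262, sunn (a protein of meiotic sister cohesion), Polr3I (a subunit of RNA polymerase III), Gk2, AdipoR (the adiponectin receptor homologue), Pdzd8, Tsp96F (a tetraspanin), Ntf-2 (a nuclear transport factor) and CG4020, with means between 0.29 and 0.40 and adjusted p of 0.580 to 0.621. These are means of 1 spot per gene, and those of their other spots ran from -0.019 for Gk2 to 0.28 for Pdzd8.

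Among the 12 with the smallest p below 0, Pink1, the kinase of mitochondrial quality control, came first. It read -0.16 and -0.68 against cntrl1 and -0.18 and -0.69 against cntrl2, with mnn++ in Cy3 and in Cy5 respectively. The arrays of the same dye orientation were nearly equal for both controls, and the mean was -0.43 ± 0.063 (limma adjusted p = 0.342). Its duplicate spot averaged -0.50 against cntrl1 and -0.099 against cntrl2. Or85d, an odorant receptor gene, averaged -0.42 ± 0.086, with a duplicate spot at 0.062 against cntrl1 and -0.042 against cntrl2. The others were CG18269, CG42724, CG10459, CG42233, Phae1 (a serine protease), CG8997, CG9577, Svil (the supervillin homologue), CG31368 and CG18568, between -0.36 and -0.29 with adjusted p of 0.620 to 0.621. These are values of 1 spot per gene. Averaged over dyes and controls, their other spots ran from -0.30 for Svil to 0.0915 for CG10459, with CG42724 at -0.0205 and CG18568 at -0.016.

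Against cntrl1 alone, 0 spots passed in limma (0.0%), and the fit with each array as its own value called 1. An unadjusted p under 0.05 was found for 1006 spots, fewer than the 1519 that would fall there by the threshold alone. Without the array with mnn++ in Cy3 or in Cy5 the count was 934 or 81, each from a single array whose dye bias remains. Peritrophin-15a, which encodes a chitin-binding protein of the gut lining, had the largest positive value of those named. It read 0.87 and 0.98 on the cntrl1 arrays and 0.17 and 0.034 on the cntrl2 arrays. Chosen by its cntrl1 values, it did not overlap between the groups. The dye-averaged value was 0.92 ± 0.13 (adjusted p = 0.408), and its duplicate spot gave 0.92 as well. Against cntrl1 it also averaged 0.43 at 4-6 h and 1.03 at 6-8 h, and against cntrl2 it averaged 0.34 and 0.62 in those windows. spoon, an A-kinase anchoring protein, stood at 0.79 and 0.48 against cntrl1 and at 0.58 and -0.15 against cntrl2, with a dye-averaged value of 0.63 ± 0.093 (adjusted p = 0.408) and a duplicate spot at 0.20.

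For several other genes named against cntrl1, 1 array held most of the value. obe read -1.69 with mnn++ in Cy3 and -0.13 with mnn++ in Cy5, and its duplicate spot averaged 0.079. cyr read -0.07 and -1.67, and its 7 other spots averaged between -0.12 and 0.072. CG13117 read -0.092 and -1.08, and its duplicate spot averaged 0.20. The adjusted p in limma was 0.408 for obe and cyr and 0.871 for CG13117. S-Lap5 (a sperm leucyl aminopeptidase), CG11262, slx1 (a structure-specific nuclease subunit) and CG31265 averaged between 0.46 and 0.56, each with the array in which mnn++ was in Cy5 at 0.72 or above and the other at 0.19 or below. CG42233, Ir41a (an ionotropic receptor) and CG5070 averaged between -0.53 and -0.47. Each of these last 7 genes had an adjusted p of 0.9996 in limma. Duplicate spots against cntrl1 ran from 0.0025 (slx1) to 0.36 (CG11262) for those above 0 and from -0.18 (CG42233) to -0.0245 (CG5070) for those below.

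Against cntrl2 alone, 126 of 30377 spots passed in limma (0.415%), 69 higher in mnn++ (0.227%) and 57 lower (0.188%), with sizes from 0.53 to 2.02. They belong to 30 higher genes (0.287% of the 10450 measured) and 33 lower genes (0.316%), and 38 spots name no single gene. Before adjustment 3393 of all spots had p under 0.05, where 1519 would fall by the threshold alone. Of the 126 spots, 123 had the same sign on both cntrl2 arrays, and 125 had a duplicate spot of the same sign. The spots were chosen by these arrays, and their duplicates lie on the same arrays. The agreement in sign and the sizes that follow are thus descriptions, and the agreement over all spots was not counted. The median size was 0.805 against cntrl2, 0.727 in the duplicate spots, and 0.0757 for the same spots against cntrl1. The test sets 1 dye-averaged value against the spread of the other windows, which is the distance between their cntrl1 and cntrl2 ratios. After averaging spots per gene 46 genes passed, 37 of them among the 63. The count was 32 under quantile normalization (12 higher, 20 lower), and 2456 or 1097 without the array with mnn++ in Cy3 or in Cy5.

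TfIIA-S and Lk6 were among the transcripts higher in mnn++ than in cntrl2. They and the genes that follow were chosen by their cntrl2 values, so separation of the cntrl2 from the cntrl1 arrays is a description. The share of all spots with such separation was not counted. TfIIA-S, the small subunit of the general factor TFIIA, read 2.08 with mnn++ in Cy3 and 1.33 with mnn++ in Cy5 against cntrl2, and 0.14 and 0.05 against cntrl1. Both cntrl2 arrays lay above both cntrl1 arrays, and the value against cntrl2 was 1.71 ± 0.18 (limma adjusted p = 0.00944), with the duplicate spot at 1.78. Lk6, a kinase that phosphorylates the cap-binding protein eIF4E, read 1.21 and 1.10 against cntrl2 and 0.19 and 0.046 against cntrl1. The cntrl2 arrays differed little between dyes, and the value was 1.15 ± 0.11 (adjusted p = 0.00649), with the duplicate spot at 1.24.

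GILT3 and CtsB were also higher. GILT3, of the lysosomal thiol reductase family, read 1.86 and 1.12 against cntrl2 and 0.35 and -0.14 against cntrl1, giving 1.49 ± 0.16 against cntrl2 (limma adjusted p = 0.00944). CtsB, cathepsin B, read 1.41 and 0.59 against cntrl2 and 0.25 and -0.23 against cntrl1, giving 1.00 ± 0.11 (adjusted p = 0.00951). All 4 spots of CtsB were called, between 0.89 and 1.00. Neither gene overlapped between the controls, and the arrays with mnn++ in Cy3 were the higher for both genes and both controls.

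CG6180 read 1.57 and 1.76 against cntrl2 and 0.055 and -0.20 against cntrl1, a change of 1.67 ± 0.11 (limma adjusted p = 0.00214) with an identical mean of 1.67 at its duplicate spot. mtrm, a maternal inhibitor of Polo kinase in female meiosis, read 1.00 and 0.61 against cntrl2 and 0.21 and -0.18 against cntrl1, a change of 0.81 ± 0.098 (adjusted p = 0.016) with its duplicate spot at 1.00. Mp20, a muscle protein of the calponin family, read 0.99 and 0.93 against cntrl2 and 0.081 and -0.55 against cntrl1, a change of 0.96 ± 0.16 (adjusted p = 0.0417). These genes stood apart between the controls on every array. CG8891, pdgy (an acyl-CoA synthetase) and rtet had changes between 0.89 and 1.02. The calls of Mp20 and pdgy held in 6 of 14 alternative settings and that of rtet in 4 of 14. The duplicate spots of Mp20, pdgy and rtet did not pass (adjusted p = 0.0503, 0.183 and 0.0952 in limma).

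**Figure D2:**
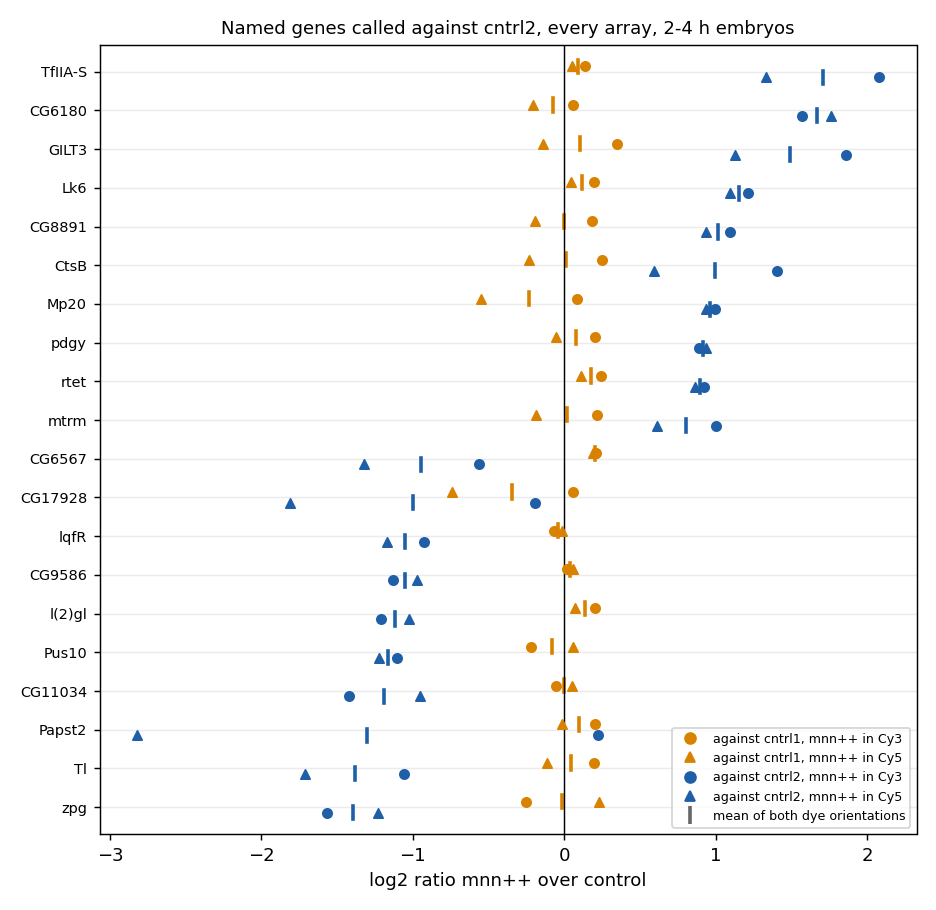
Log2 ratio of mnn++ over control on every array for the 20 named genes called against cntrl2; colour gives the control, circles and triangles the arrays with mnn++ in Cy3 and Cy5, and bars the mean of both. The cntrl2 points run from -2.82 for Papst2 to 2.08 for TfIIA-S, and the genes were chosen by these cntrl2 values, so their distance from the cntrl1 points is a description.

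Transcripts lower in mnn++ than in cntrl2, likewise chosen by their cntrl2 values, included a germline and a dorsoventral gene. zpg, an innexin that forms gap junctions between germ cells and their soma, read -1.57 and -1.23 against cntrl2 and -0.25 and 0.23 against cntrl1. The controls did not overlap, and the value against cntrl2 was -1.40 ± 0.11 (limma adjusted p = 0.00225), with the duplicate spot at -1.42. Tl, the Toll receptor that the mother supplies for the dorsoventral axis, read -1.06 and -1.71 against cntrl2 and 0.20 and -0.12 against cntrl1. Its value was -1.38 ± 0.17 (adjusted p = 0.016), with the duplicate spot at -1.35.

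l(2)gl, a tumour suppressor that sets apical-basal polarity, read -1.21 and -1.03 against cntrl2 and 0.20 and 0.07 against cntrl1, a change of -1.12 ± 0.15 (limma adjusted p = 0.0242). Pus10, a pseudouridine synthase, read -1.10 and -1.22 against cntrl2 and -0.22 and 0.059 against cntrl1, a change of -1.16 ± 0.11 (adjusted p = 0.00686). lqfR, of the epsin family, read -0.93 and -1.17 against cntrl2 and -0.065 and -0.018 against cntrl1, a change of -1.05 ± 0.12 (adjusted p = 0.0106). All of these had cntrl2 arrays below both cntrl1 arrays. CG11034, CG9586 and CG6567 had changes between -1.19 and -0.94, also with no overlap, which the choice of genes by these values favours. The call of CG9586 held in 6 of 14 alternative settings. Against cntrl2 the duplicate spots of l(2)gl, CG11034 and CG9586 did not pass (adjusted p = 0.0552, 0.0792 and 0.225 in limma).

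Papst2, a transporter of the sulfate donor PAPS, rested on 1 array. It read 0.22 with mnn++ in Cy3 and -2.82 with mnn++ in Cy5 against cntrl2, its duplicate spot read -0.22 and 0.14, and the call of -1.30 ± 0.10 (limma adjusted p = 0.00266) became 0.22 without that array. CG17928 was similar, at -0.19 and -1.81 against cntrl2 with a duplicate spot averaging -0.0905.

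The difference between the controls was tested directly, as the cntrl2 ratio minus the cntrl1 ratio, and 12 spots passed in limma (0.0395%), 5 above 0 and 7 below. The count was 4 after scaling all arrays to one spread (3 above 0, 1 below), 94 with each array as its own value (57 above, 37 below), and 23 to 230 with 1 array left out. CG11164 differed most, at 1.81 ± 0.14 (adjusted p = 0.0102) for one spot and 1.4965 ± 0.15 (adjusted p = 0.0161) for its duplicate. It read 2.13 and 1.479 against cntrl2 and 0.13 and -0.14 against cntrl1. Its ratio to cntrl2 was 0.69 at 4-6 h, 0.92 at 6-8 h and 0.83 at 2-16 h, and arrays that hybridised both controls together at 2-16 h gave 0.80 in favour of cntrl1. A spot that separates the controls in every window has a large spread in the test against cntrl2, where CG11164 had an adjusted p of 0.0606, and 35 of the 53 spots over 1 in size were called.

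CG6180 differed by 1.74 ± 0.15 (limma adjusted p = 0.0109) and zpg by -1.39 ± 0.15 (adjusted p = 0.0222), each at both of its spots. l(2)gl differed by -1.27 ± 0.15 (adjusted p = 0.0347), also at both spots, and CG11034 by -1.13 ± 0.14 (adjusted p = 0.0347). Papst2 passed at -1.40 through the array described above. The other genes named against cntrl2 had adjusted p between 0.0553 and 0.375 for this difference, so most calls against cntrl2 were not shown to differ from the cntrl1 values.

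The spots called against cntrl2, chosen by their 2-4 h value, had smaller ratios in other windows. In the direction of their 2-4 h value, the 126 spots had a median of 0.805 against cntrl2 at 2-4 h, 0.105 at 4-6 h, 0.124 at 6-8 h and 0.014 at 2-16 h. The median size over all spots was 0.0905, 0.106, 0.085 and 0.0635 in those windows. The sign against cntrl2 was kept by 79.4% of the 126 spots at 4-6 h, 79.4% at 6-8 h and 56.3% at 2-16 h, beside 59.2%, 56.1% and 51.2% of all spots. Against cntrl1 at 4-6 h, 77.0% of the 126 had the sign of their cntrl2 value at 2-4 h, beside 53.8% of all spots, with a median of 0.0982. At 2-4, 6-8 and 2-16 h the shares against cntrl1 were 64.3%, 57.9% and 47.6%, beside 54.1%, 51.5% and 49.4% of all spots. The medians there were 0.0258, 0.0235 and -0.0065. On the 2-16 h arrays that paired cntrl1 with cntrl2, 85 of the 126 lay in the matching direction, with a median of 0.0478. The share of all spots in the matching direction was not counted there, so the 85 are a description only. These windows are separate collections, but the change of the values between them was not tested against cntrl2 alone.

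**Figure D3:**
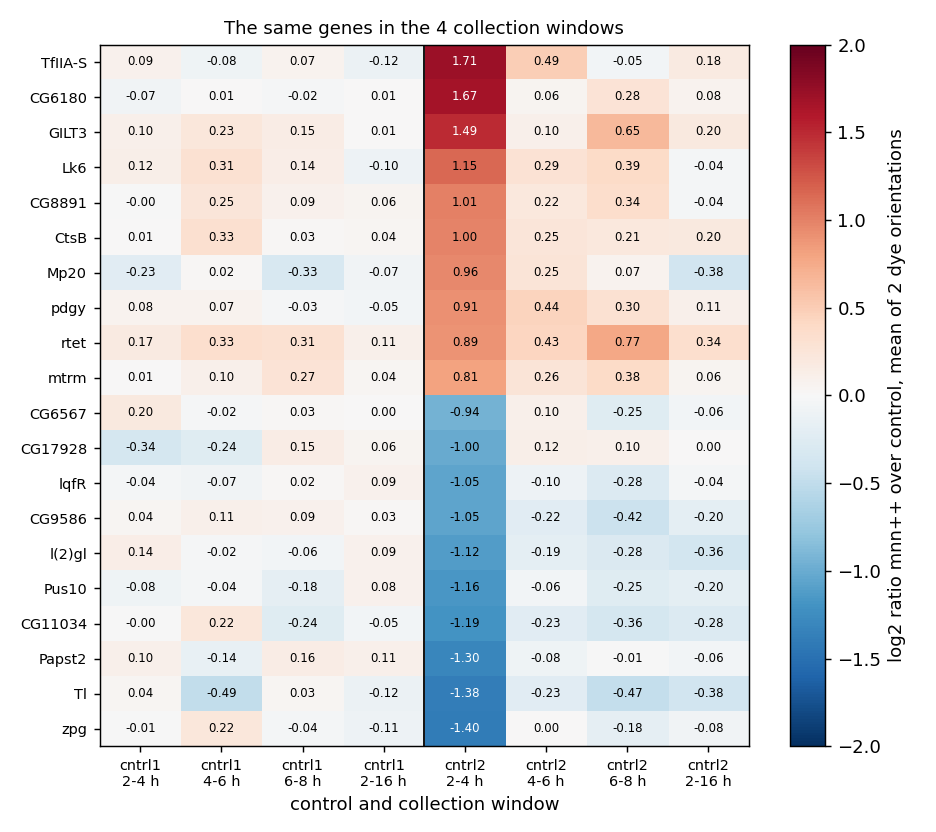
Dye-averaged log2 ratio of mnn++ over control (colour and printed value) for the 20 genes called against cntrl2, by control and collection window. The column for cntrl2 at 2-4 h runs from -1.40 to 1.71, and rtet, at 0.77 for 6-8 h, is the highest value in any other column.

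Compared with the mean of 4-6 and 6-8 h in 1 fit, 0 spots of the 2-4 h ratios passed in limma (0.0%). At an unadjusted p under 0.05 there were 1246, fewer than the 1519 expected by the threshold alone, and treating each array as its own value called 3. The smallest p below 0 belonged to Elba3, part of an insulator-binding complex of the early embryo. It read -0.036 and -0.25 against cntrl1 and -0.44 and -0.46 against cntrl2, all below 0, and lay 0.59 ± 0.099 below the later windows (adjusted p = 0.998). The duplicate spot of Elba3 stood at -0.27 in that comparison and read 0.023 against cntrl1 with mnn++ in Cy3. CG9308, Pink1, Ror (a receptor tyrosine kinase), Or85d and CG42724 followed, at -0.45 to -0.34. Their duplicate spots stood between -0.23 for Pink1 and 0.17 for Ror. Above 0, CG4598 stood 0.52 ± 0.10 over the later windows, followed by Ntf-2, eIF4E1 (the cap-binding protein), p23 (a cochaperone of Hsp90), REPTOR-BP (a transcription factor of the TORC1 pathway) and CG45049, at 0.31 to 0.40. The other spots of these genes stood between 0.036 for eIF4E1 and 0.34 for p23.

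Gene groups were read as the median over their measured genes, beside medians over all 10450 genes of 0.0010 for the mean of both controls, -0.0020 against cntrl1 and 0.0014 against cntrl2. No member of the groups below passed against the mean of both controls or against cntrl1. Those that passed against cntrl2 were opa, Tl and 1 of 10 spots of stv.

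Early zygotic genes of cellularization were the lowest group. Of 9 measured, 8 lay below 0 for the mean of both controls, with medians of -0.17 for that mean, -0.084 against cntrl1 and -0.33 against cntrl2. Over all genes 49.5% lay below 0. slam, which recruits myosin to the invaginating furrow, read -0.35 and -0.71 against cntrl2 and 0.042 and -0.21 against cntrl1. The cntrl2 arrays were the lower, and the smallest adjusted p of its spots against cntrl2 was 0.0593 in limma. nullo, needed for the basal junctions of the furrow, read -0.65 and -0.19 against cntrl2 and -0.24 and -0.066 against cntrl1, and halo, a regulator of lipid droplet transport, read -0.23 and -0.71 and 0.15 and -0.35. bnk, which delays ring constriction, was below 0 on every array, from -0.40 to -0.14, and averaged -0.27. btsz averaged -0.13, trbl (an inhibitor of String) -0.17, sala -0.097, term -0.00038 and Sry-alpha 0.0028.

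Segmentation genes were read in the same way. Of 10 gap genes, which divide the embryo into broad domains, 9 lay below 0 for the mean of both controls and 10 against cntrl2, with medians of -0.097 for the mean, -0.050 against cntrl1 and -0.16 against cntrl2. btd was the lowest at -0.42 against cntrl2, followed by ems at -0.32, hb at -0.27 and Kr at -0.23. kni, hkb, gt, tll, oc and knrl lay between -0.18 and -0.00825 against cntrl2. Of 8 pair-rule genes, which set the double-segment pattern, 8 lay below 0 against cntrl2 (median -0.20) and 3 against cntrl1 (median 0.053). opa, a zinc finger regulator of the late pair-rule phase, was called at 1 of its 2 spots, which read -0.611 and -0.615 against cntrl2 and 0.33 and 0.035 against cntrl1, giving -0.61 ± 0.093 (limma adjusted p = 0.0327). Its other spot averaged -0.36 against cntrl2. D, eve, ftz, hry, odd, prd and slp2 lay between -0.22 and -0.023 against cntrl2.

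**Figure D4:**
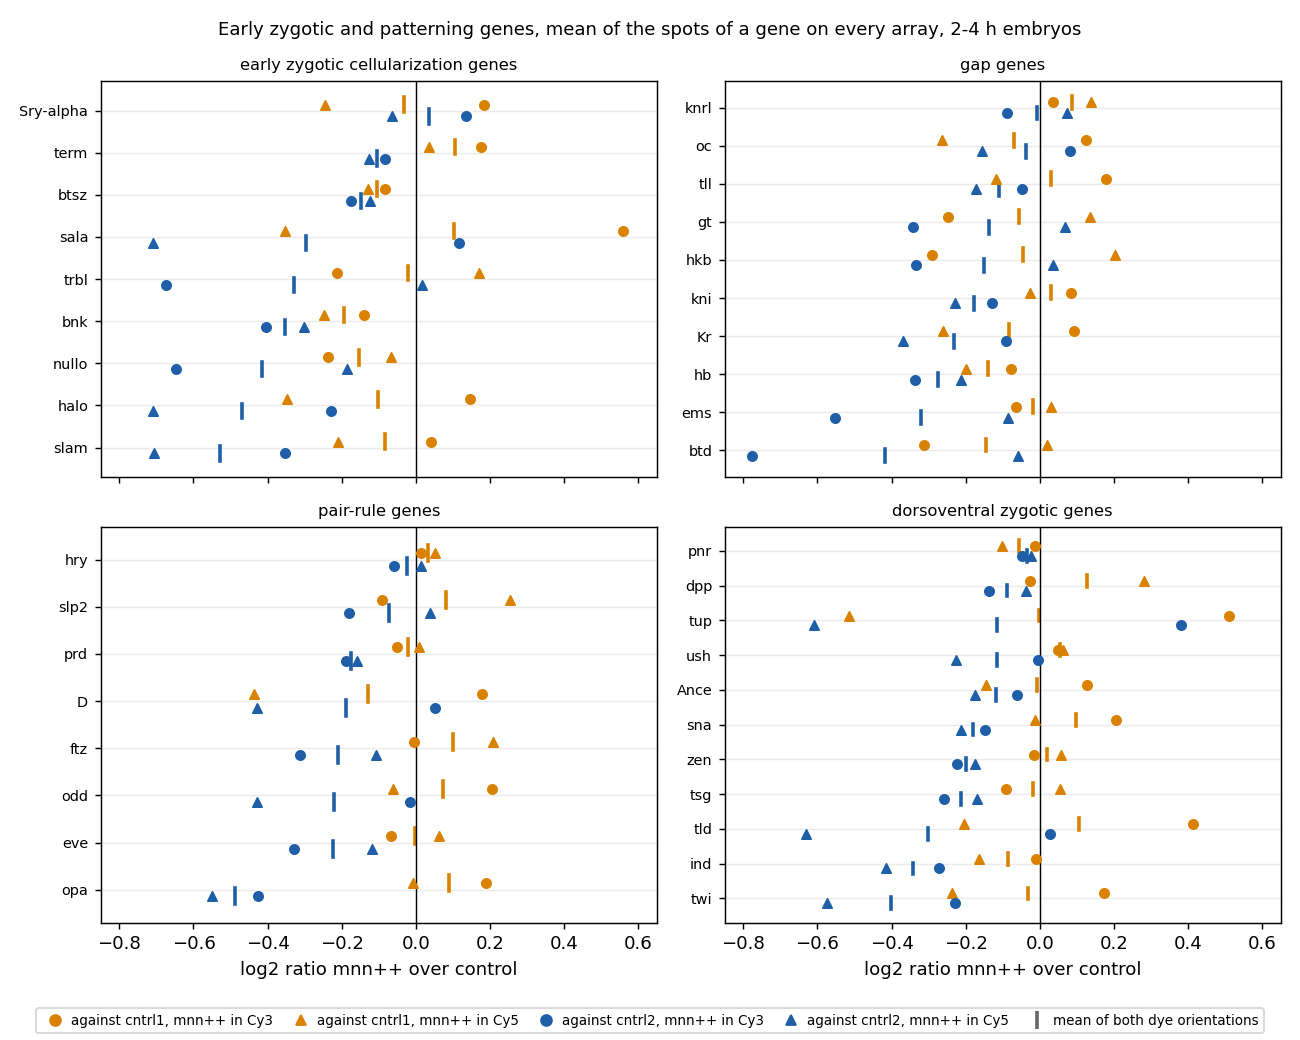
Log2 ratio of mnn++ over control on every array for 9 cellularization, 10 gap, 8 pair-rule and 11 dorsoventral genes, each the mean of its spots. The blue bars, the means against cntrl2, lie below 0 for all genes shown except Sry-alpha, and the orange bars, against cntrl1, lie on both sides.

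Of 11 zygotic dorsoventral genes, 11 lay below 0 against cntrl2 (median -0.18) and 6 against cntrl1 (median -0.0020). twi, which specifies mesoderm, averaged -0.40 against cntrl2 and -0.031 against cntrl1, and ind, a neuroectoderm regulator, -0.34 and -0.087. tld, zen and dpp, genes of the dorsal side, averaged -0.30, -0.20 and -0.087 against cntrl2 and 0.11, 0.021 and 0.13 against cntrl1. tsg stood at -0.21 against cntrl2 and pnr at -0.035. The 9 segment polarity genes had a median of -0.012 with cntrl1 and -0.087 with cntrl2. In that group ci (-0.45), en (-0.35) and ptc (-0.27) were the lowest against cntrl2, gsb-n, gsb, nkd and hh lay between -0.14 and -0.064, and inv and mid were above 0. In other windows the cellularization median against cntrl2 was -0.039 at 4-6 h, -0.016 at 6-8 h and 0.067 at 2-16 h. At 4-6 h the cntrl2 medians were -0.15 for gap genes (8 of 10 below 0), -0.0925 for pair-rule genes (6 of 8), -0.1385 for segment polarity genes (6 of 9) and -0.047 for dorsoventral genes (7 of 11). At 6-8 h those of gap, pair-rule and segment polarity genes were 0.023, 0.028 and 0.0175, and that of dorsoventral genes was -0.028.

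Muscle and cuticle genes lay mostly above 0 against cntrl2. Of 12 muscle and sarcomere genes, 11 were above 0 against cntrl2 (median 0.19), 4 against cntrl1 (median -0.021) and 12 for the mean of both. Mlc2, a myosin light chain, read 1.46 and 0.77 against cntrl2 and 0.17 and -0.24 against cntrl1, and did not pass (smallest adjusted p = 0.143 in limma). Mlc1 averaged 0.69 against cntrl2 and -0.074 against cntrl1, and Tm2 0.66 and -0.21. Of 16 cuticle genes, 13 were above 0 against cntrl2 (median 0.12) and 3 against cntrl1 (median -0.064), with TwdlF highest at 0.41 against cntrl2. Of 14 haemocyte and basement membrane genes, 7 lay above and 7 below 0 against cntrl2 (median -0.00125). At their ends, NimC1, a phagocytosis receptor, averaged -0.11, and the collagen IV chains vkg and Col4a1 averaged 0.37 and 0.35 against cntrl2 and -0.0905 and -0.00125 against cntrl1. Other groups lay mostly above 0 against cntrl2 too, among them cytosolic ribosomal protein (15 of 18), Krebs cycle and respiratory (15 of 21), digestive enzyme (15 of 21) and testis genes (10 of 13). Of 5 neuronal genes, 2 did so (median -0.0025). Low early zygotic values and high values of muscle, cuticle and these other groups thus occurred on the same cntrl2 arrays. Their part in the calls against cntrl2 was not tested.

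**Figure D5:**
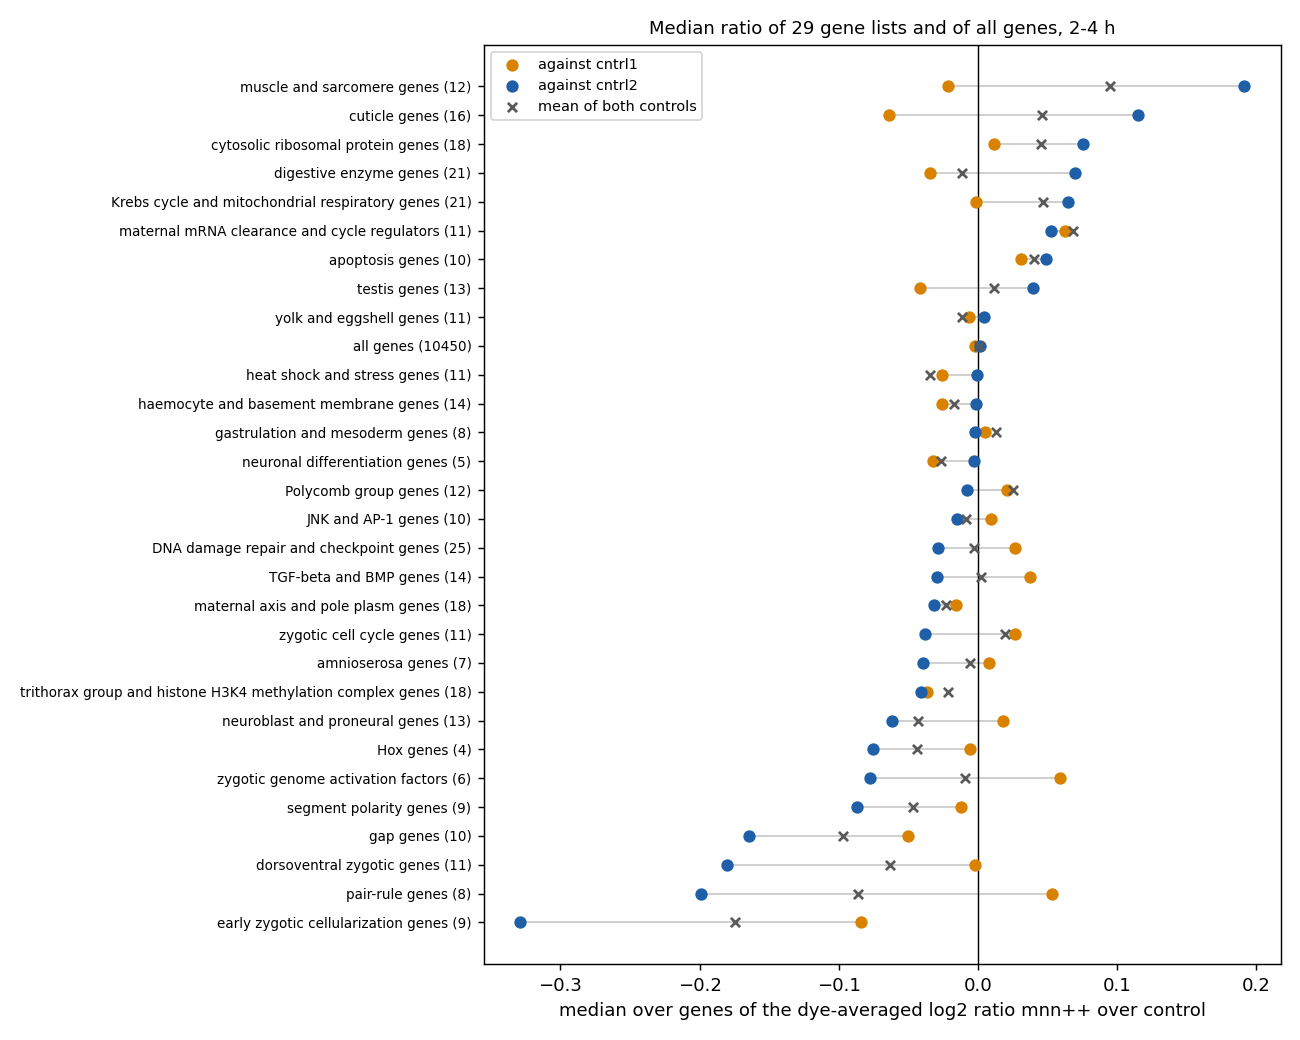
Median over genes of the dye-averaged log2 ratio for 29 gene groups and for all genes, against cntrl1, against cntrl2 and for the mean of both, with the number of measured genes in parentheses. The cntrl2 medians run from -0.33 for cellularization genes to 0.19 for muscle genes, while the cntrl1 medians stay between -0.084 and 0.063.

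Maternal and regulatory genes were read by the mean of both controls. Of 18 maternal axis and pole plasm genes, 10 lay below 0 for the mean of both controls (median -0.023). None was called for that mean, and Tl was the only one called against cntrl2. osk, which nucleates pole plasm, averaged 0.027 against cntrl1 and -0.23 against cntrl2, while vas and gcl averaged 0.13 and 0.12 against cntrl2. Of 11 maternal mRNA clearance and cycle regulators, 9 lay above 0 for the mean of both controls (median 0.069), led by CycB at 0.15 and smg, which targets maternal transcripts for decay, at 0.12. Of 6 zygotic genome activation factors, nej, the CBP acetyltransferase, was lowest for the mean of both at -0.43 and zld, the pioneer factor Zelda, stood at -0.15, while grh, Stat92E, Dref and Clamp lay between -0.013 and 0.11.

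Genes of the trithorax and Polycomb groups lay on both sides of 0. Of 18 trithorax group and H3K4 methylation complex genes, 8 lay above 0 and 10 below for the mean of both controls, with a median of -0.021. trx, the methyltransferase, was lowest at -0.18, followed by kis, brm and Cfp1, and Snr1, ash2 and Hcf were highest at 0.14, 0.12 and 0.10. Of 12 Polycomb group genes, 8 lay above 0 (median 0.025), with Sce, an H2A ubiquitin ligase, highest at 0.20. The Hox genes Antp, Dfd, Scr and pb averaged between -0.077 and 0.055 for the mean of both. Stress and heat shock genes had a median of -0.035. There Hsp26 averaged -0.61 against cntrl2 and -0.058 against cntrl1 (smallest adjusted p against cntrl2 = 0.0593 in limma), and 1 of 10 spots of stv, a chaperone cofactor, passed against cntrl2 at -0.59, from readings of -1.25 with mnn++ in Cy3 and 0.074 with mnn++ in Cy5.

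Among smaller groups, apoptosis genes lay above 0 for 8 of 10, with Dronc, the initiator caspase, at 0.15 against cntrl1 and 0.59 against cntrl2, Strica, Dcp-1, Dark, Diap2, Buffy, Damm and Dredd between 0.0096 and 0.12 for the mean of both, and grim and skl below 0. JNK and AP-1 genes (egr, bsk, hep, slpr, msn, p38a, Gadd45, Mkk4, puc and kay) ran from -0.22 for egr, the TNF ligand, to 0.076 for kay, the fly Fos. The gastrulation and mesoderm genes Mdr49, bap, Mes2, PolE4, T48, ltl, fog and htl had a median of 0.013, and the amnioserosa genes Doc3, C15, Alk, peb, Doc1, zen2 and Doc2 one of -0.0058. Of 18 cytosolic ribosomal protein genes, 14 lay above 0 (median 0.046), and of 21 Krebs cycle and respiratory genes, 15 (median 0.047). The lowest listed in the latter group was Pink1, the kinase of mitochondrial quality control named above, which is not an enzyme of either pathway. The neuronal genes nSyb, brp, Rbp9, elav and fne had a median of -0.026.

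The groups not yet described had medians for the mean of both controls between -0.043 and 0.020. That of 25 DNA damage repair and checkpoint genes was -0.0024, with 11 above 0, from -0.23 for Blm, a RecQ helicase, to 0.27 for mre11, a nuclease of double-strand break repair. TGF-beta and BMP genes, 14 in number, had a median of 0.0026 and ran from -0.089 for Actbeta to 0.17 for Mad, the BMP signal transducer. The 11 zygotic cell cycle genes had a median of 0.020, with RnrL lowest at -0.18 and fzy, an activator of the anaphase-promoting complex, highest at 0.094. The 13 neuroblast and proneural genes had a median of -0.043, with sc lowest at -0.24. Digestive enzyme genes (21 measured, median -0.011), haemocyte and basement membrane genes (14, -0.017), yolk and eggshell genes (11, -0.0115) and testis genes (13, 0.012) had 9, 5, 5 and 7 members above 0. For the digestive enzymes the controls lay on opposite sides, with 19 of 21 below 0 against cntrl1 (median -0.034) and 15 of 21 above 0 against cntrl2 (median 0.070).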

How the data were processed

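The authors deposited log ratios of the RNAs on each two-colour array, read here as log2. Their processing notes, as the submitters gave them, name limma 2.12.0. The log base, the sign and the normalization steps are not given in the sources used here. Deposited signs were read as already turned for the dye swap, because both Mnn1 spots had 1 sign in both orientations at 2-16 h. Over all spots, arrays of the same dye orientation correlated at a median r of 0.329 over spots (lowest 0.0644) and arrays of opposite orientation at -0.247, the 2-4 h arrays at -0.376 for cntrl1 and 0.111 for cntrl2. Array medians at 2-4 h ran from -0.015 to 0.008 and SDs from 0.176 to 0.247, and the number of arrays limits the precision. Values of 16 mnn++ arrays from 4 windows were averaged over dyes to 8 comparisons and fitted with limma 3.58.1 (R 4.3.3), with Benjamini-Hochberg adjustment over all 30377 spots, a threshold of 0.05 and two-sided tests. The spread came from the distance between the cntrl1 and cntrl2 ratios within each window, so differences between the controls enter it. For the test of the difference between controls, it came from the other windows about their mean. A single control at 2-4 h was assumed to vary like the other windows. The fits were tested on simulated data. Empty spots (1008) and those missing on 1 array (79) were left out.

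Spots were matched to current fly genes by gene identifier, or else by RefSeq transcript, and members of the groups by RefSeq symbols and synonyms. The files name no assembly, so no coordinates are given. Named genes were the 12 of smallest p in each direction with 1 sign on all 4 arrays for the mean of both controls, the 10 largest called changes in each direction against cntrl2 and between controls, the 6 of smallest p against cntrl1 and later windows, every Mnn1 spot, each member of groups of up to 10 genes, and the extremes and called members of longer groups. Comparisons, genes and the 29 groups were chosen with earlier results of these data known. Of 526 grouped genes, 356 were measured. Alternatives changed the scaling, the use of dyes and arrays, the windows, and the averaging of spots. Promoter sequences were not analysed here. The adult arrays were not used here.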

Additional observations from a re-analysis of the deposited data

Results flagged for a closer look

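The ratio to cntrl2 minus the ratio to cntrl1 passed the limma test of the difference at 12 spots, listed here as 2-4 h differences on the log2 scale. CG11164 stood at 1.81 and 1.4965 at its 2 spots and CG6180 at 1.74 and 1.73. zpg stood at -1.59 and -1.39, l(2)gl at -1.27 and -1.26, and CG11034 at -1.13. Papst2 stood at -1.40, from 1 array. Of the spots with no single gene name, spot 26564 stood at 1.502 and spot 6139 at -1.31. Whether both comparisons used the same mnn++ RNA is not stated, and each group holds 2 arrays, too few for a test of a single array against its group.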

How the results depend on the processing

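No paired analysis was possible because replicate numbers were given in accession order and mark only the dye orientation of an array. Treating each array as its own value with a dye term gave 153 called spots for the mean of both controls, 1 for cntrl1, 585 for cntrl2, 94 for the difference between controls and 3 against later windows. Arrays with mnn++ in Cy3 only gave 147, 1, 75 and 2 for the first 4 of these, and arrays with mnn++ in Cy5 only gave 3 for the mean, 11 for cntrl2 and 1 for the difference. For the mean of both controls, robust moderation and single-name spots each gave 1. Scaling arrays to one spread gave 75 for cntrl2 and 4 for the difference, and quantile normalization gave 6 for cntrl1 and 32 for cntrl2. Against cntrl2, averaging spots per gene gave 46 genes, single-name spots 80, and fits without 2-16, 4-6 and 6-8 h gave 42, 215 and 53. For the difference, fits without 2-16 and 4-6 h gave 124 (85 above 0, 39 below) and 67 (37 above, 30 below). Averaging duplicate spots, chosen after seeing the data, gave 41 clones for the difference and 135 for cntrl2. Leaving out 1 array in turn, which keeps a dye bias in by construction, gave 0 to 3 spots for the mean, 81 to 934 for cntrl1, 1097 to 2456 for cntrl2 and 23 to 230 for the difference. The cause of these shifts was otherwise not tested.

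Group medians moved to -0.3287 (cellularization), -0.1992 (pair-rule) and -0.1803 (dorsoventral) against cntrl2 only, and to 0.05325 (pair-rule) and 0.01825 (neuroblast) against cntrl1 only. With mnn++ in Cy3 only they moved to -0.1307 (neuroblast) and 0.0145 (neuronal), and in Cy5 only to -0.1041 (genome activation factors), -0.04681 (Polycomb) and -0.0285 (Krebs cycle). Without 1 array in turn, neuronal genes ran from -0.02525 to 0.01925, TGF-beta genes from 0.01169 to 0.064 and ribosomal protein genes from -0.0008438 to 0.06237. The other 276 group values moved by less than the spread between arrays. Mnn1 spot 12064 changed sign with mnn++ in Cy3 only (-0.141), and without the Cy5 array of cntrl1 (-0.04275) or of cntrl2 (-0.0715). Papst2 changed sign with mnn++ in Cy3 only and without the Cy5 array of cntrl2, to 0.22 against cntrl2 and to 0.015 and 0.125 for the difference. Leaving out 1 array in turn, it ran from -2.822 to 0.22 against cntrl2 and from -2.917 to 0.125 for the difference. Turning the sign of every ratio exchanges higher and lower throughout. The planned motif search in promoters was not run.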

Other observations

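The 38 called spots against cntrl2 that name no single gene included the 2 largest changes called, which by the array layout are duplicate spots of 1 clone. Spots 19609 and 18953 averaged 2.02 and 1.99 against cntrl2 and 0.095 and -0.033 against cntrl1, and spots 19579 and 18923, also duplicates of 1 clone, averaged 1.73 and 1.64 against cntrl2 and 0.051 and 0.12 against cntrl1. Against cntrl2 the 4 spots, in that order, stood at 0.52, 0.32, 0.098 and 0.39 at 4-6 h, at 1.09, 0.98, 0.92 and 1.09 at 6-8 h, and at 0.34, 0.21, 0.32 and 0.25 at 2-16 h. These 4 were picked with their values in view.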
